A study of Homo sapiens with 6 samples.

Results

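Histone genes were examined in poly(A) RNA of NB4 cells, an established human line of acute promyelocytic leukaemia, which is a cancer of granulocyte precursors. The members were the protein-coding genes of the table whose symbols begin with H1-, H2A, H2B, H3C, H3-, H4C or H4-, or carried the corresponding older names. Of 92 such symbols, 1 (H2BN1) had no row, which left 91 genes of 61806. They were 71 replication-dependent cluster genes and 20 variant histone genes. NB4 cells in which a lentivirus had been used for stable overexpression of CD69, a lectin-like membrane protein of activated leukocytes (3 libraries, here called OE), were compared with matched vector control NB4 cells (3 libraries, here called control), whose genotype the labels give as Wild-type. No drug was applied, all cells were growing logarithmically, and all 6 libraries carry the label batch 1. The design text states that the transcriptional changes that go with CD69 overexpression were sought. The design text speaks of biological replicates, but no source names separate transductions or cultures, and the spread behind each p-value may therefore be technical. The promoter that drives CD69 is not given in the sources used here, nor is whether a line is 1 clone.

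Histones are the proteins around which DNA is wound. Most of the canonical H1, H2A, H2B, H3 and H4 proteins come from gene clusters that are transcribed in S phase, and their mRNAs end in a short stem-loop bound by the stem-loop binding protein SLBP in place of a poly(A) tail. Variant histones such as H2A.Z and H3.3 are made outside S phase as well, and their mRNAs are polyadenylated like those of other genes. Some cluster genes also give polyadenylated transcripts that read past the stem-loop, in particular in cells that have left the cell cycle. The RNA was selected in 2 rounds on oligo(dT), so the values below do not cover the whole output of the cluster genes. How much of these values comes from RNA without a tail was not tested.

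Total counts were between 51543550 and 57463020 per library, and 3 counts, the limit that a count of 0 allows, stood for 0.0529 to 0.0587 CPM (the count relative to the library total, with edgeR's TMM scaling). This limit covers counting error only, and it is 4 times as high if 1 fragment stands for 4 counts, as an excess of values at exactly 4 and 8 leaves possible. CD69 itself was at 98.2, 99.1 and 95.7 CPM in the OE libraries and at 80.4, 81.9 and 70.6 CPM in the controls, a log2 fold change of 0.33 (SE 0.07, adjusted p = 0.0153). The neutrophil granule markers ELANE, PRTN3, AZU1 and CTSG were detected in all 6 libraries, each at 100.2 CPM or more, whereas MPO, the myeloperoxidase of promyelocytes, was at 0.518 to 1.03 CPM in the OE libraries and 0.928 to 1.45 CPM in the controls. Of all 19485 tested genes, 14.2% were higher and 9.94% lower in OE at an adjusted p under 0.05, and of the 8 promyelocyte markers 3 were higher. The summed level of 8 B cell markers was 28.8, 96.0 and 95.4 CPM in OE replicates 1, 2 and 3 and 19.9 to 26.0 CPM in the controls. None of these 8 was at 0 in every library, and 4 of them rose. Of 8 T and NK cell markers 4 were tested, 1 of which rose and 2 fell, and of 6 erythroid markers 1 was tested and not called. The T and NK list summed to 113.8 to 131.4 CPM in OE and 103.6 to 119.6 CPM in the controls. Its NKG7, which rose, averaged 106.0 CPM in OE and 60.5 CPM in control, and NCAM1, which fell, averaged 12.8 and 46.6 CPM. The erythroid list summed to at most 0.319 CPM in OE and 1.36 CPM in control. The T cell genes CD3E and CD3G and the erythroid genes ALAS2 and AHSP were at 0 in every library.

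The stem-loop at the 3′ end is characteristic of replication-dependent histone mRNAs, and it is shown first for that reason. It was searched along the whole length of the coding transcripts of GENCODE v29 (GRCh38). The pattern was a 6-base stem that opens with GG and closes with CT, a 4-base loop and the strand pairing with the stem. A match was present in 166 of 19684 coding genes (0.843%). Among them were 31 of the 71 cluster genes and 1 of the 20 variant genes, H2AX. The other matches lay outside the members, so a match alone does not mark a member. The 6 forms found in these genes are given here 5′ to 3′ as DNA, with the loop in capitals, the number of genes that carry each, and 1 example.
Form in 17 genes, 13 of them tested (H2BC21, chr1:149886188-149886203, minus strand): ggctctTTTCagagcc
Form in 5 genes, 2 tested (H2BC5, chr6:26158587-26158602, plus strand): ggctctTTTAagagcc
Form in 5 genes, 3 tested (H4C8, chr6:26285131-26285146, minus strand): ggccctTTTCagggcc
Form in 3 genes, 3 tested (H4C15, chr1:149860769-149860784, minus strand): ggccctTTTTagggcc
Form in 1 gene, tested (H3C6, chr6:26225596-26225611, plus strand): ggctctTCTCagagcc
Form in 1 gene, tested (H2AX, chr11:119094898-119094913, minus strand): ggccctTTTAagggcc
The forms with a ggctct stem belonged to H2A, H2B and H3 genes, and those with a ggccct stem to H4 genes and H2AX.

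In 22 of the 31 cluster genes with a stem-loop, the annotated transcript went on for at least 100 bases beyond it, as in H2BC21, whose transcript of 2194 bases extends 1729 bases past the stem-loop. Of these 22 genes, 16 (72.7%) had enough counts to be tested. Of the 9 whose transcript ended closer to the stem-loop, 6 were tested. Of the 40 cluster genes with no stem-loop in their model, 9 (22.5%) were tested, and 33 of those 40 models held only a coding sequence. Such a model stops before the 3′ end begins, so the missing match says only that these letters are not in it. An AATAAA or ATTAAA hexamer, the letters of a poly(A) signal, lay in the last 40 bases of 18 of the 31 annotated transcripts. GENCODE v29 is not necessarily the annotation the counts were made with.

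Promoters are shown for 4 of the 7 genes called below, 1 variant and 1 cluster gene in each direction: H2AJ and H2BC21, which were higher in OE, and H2AZ1 and H2BC12, which were lower. Each runs from 250 bases before to 50 bases after the start given by RefSeq (GRCh38.p14), 5′ to 3′ on the gene's strand. Capitals mark CCAAT, the box TATAAA and the octamer ATTTGCAT, each searched on both strands. On the other strand CCAAT reads ATTGG, the box reads TTTATA, and the octamer reads ATGCAAAT. In the H2BC12 promoter, TATAAA and TTTATA overlap 1 time.
H2AJ (chr12:14774155-14774454, plus strand): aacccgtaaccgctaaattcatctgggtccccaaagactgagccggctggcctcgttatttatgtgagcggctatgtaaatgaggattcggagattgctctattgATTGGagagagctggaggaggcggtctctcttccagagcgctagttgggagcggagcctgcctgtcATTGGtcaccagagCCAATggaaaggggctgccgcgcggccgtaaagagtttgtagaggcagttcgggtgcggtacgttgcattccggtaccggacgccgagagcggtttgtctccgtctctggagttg
H2BC21 (chr1:149886633-149886932, minus strand): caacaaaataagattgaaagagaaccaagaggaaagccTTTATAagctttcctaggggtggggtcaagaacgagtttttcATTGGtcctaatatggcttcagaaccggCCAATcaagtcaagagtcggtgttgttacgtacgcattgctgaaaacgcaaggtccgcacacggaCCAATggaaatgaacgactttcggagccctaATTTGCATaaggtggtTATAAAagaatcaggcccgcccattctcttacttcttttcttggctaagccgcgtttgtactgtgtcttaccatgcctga
H2BC12 (chr6:27146809-27147108, minus strand): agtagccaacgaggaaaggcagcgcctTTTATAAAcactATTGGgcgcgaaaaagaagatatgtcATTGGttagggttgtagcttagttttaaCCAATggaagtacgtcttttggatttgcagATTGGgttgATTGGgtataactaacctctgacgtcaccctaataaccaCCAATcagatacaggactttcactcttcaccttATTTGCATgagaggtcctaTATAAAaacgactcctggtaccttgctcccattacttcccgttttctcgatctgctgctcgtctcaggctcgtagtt
H2AZ1 (chr4:99950226-99950525, minus strand): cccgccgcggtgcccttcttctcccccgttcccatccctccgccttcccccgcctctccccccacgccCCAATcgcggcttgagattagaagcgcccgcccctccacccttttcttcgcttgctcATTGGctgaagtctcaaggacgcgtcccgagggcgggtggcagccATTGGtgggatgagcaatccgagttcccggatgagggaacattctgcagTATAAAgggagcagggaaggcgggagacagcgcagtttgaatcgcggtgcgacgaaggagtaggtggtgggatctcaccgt

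A RefSeq promoter was found for 83 of the 91 genes. The octamer, the binding motif of OCT1, stood in 77.8% of cluster H2B promoters and 68.8% of cluster H2A promoters, against 1.8% of all 27305 promoters. It was in 8.33% of cluster H3 promoters, in 0 of 13 cluster H4 promoters and in 5.56% of variant promoters. CCAAT, the binding motif of NF-Y, was in 84.6% of cluster promoters and 94.4% of variant promoters, against 35.7% of all promoters. It was in all promoters of cluster H2A, H2B and H3 genes that were found, but in 3 of 13 cluster H4 promoters (23.1%). TATAAA was in 66.2% of cluster and 33.3% of variant promoters, against 12% of all. H2BC21 and H2BC12, which moved in opposite directions, had the same octamer 46 bases before the start and TATAAA 30 and 27 bases before it. H2AJ had 3 CCAAT matches, the nearest 65 bases before the start, and neither of the other motifs. These matches are letters in a window, and no binding was measured.

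Of the 91 histone genes, 14 were at 0 in all 6 libraries, 9 of them cluster and 5 variant genes, and 41 passed the filter on low counts. The 41 were 31 of the 71 cluster genes and 10 of the 20 variant genes. Among them, 4 were higher and 3 were lower in OE than in control at an adjusted p under 0.05 (edgeR's quasi-likelihood test, adjusted by Benjamini and Hochberg over all 19485 tested genes). Of all tested genes, 14.2% were called higher, 9.94% lower and 24.1% in either direction, so the count of histone genes called was not above the background. The median log2 fold change was -0.16 over the 41 genes and 0.01 over all tested genes. The 3 OE values and the 3 control values did not overlap in 14 of the 41 genes, 5 with OE higher and 9 with OE lower, against 42.3% of all tested genes in either direction, 23% with OE higher and 19.3% with OE lower.

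**Figure D1:**
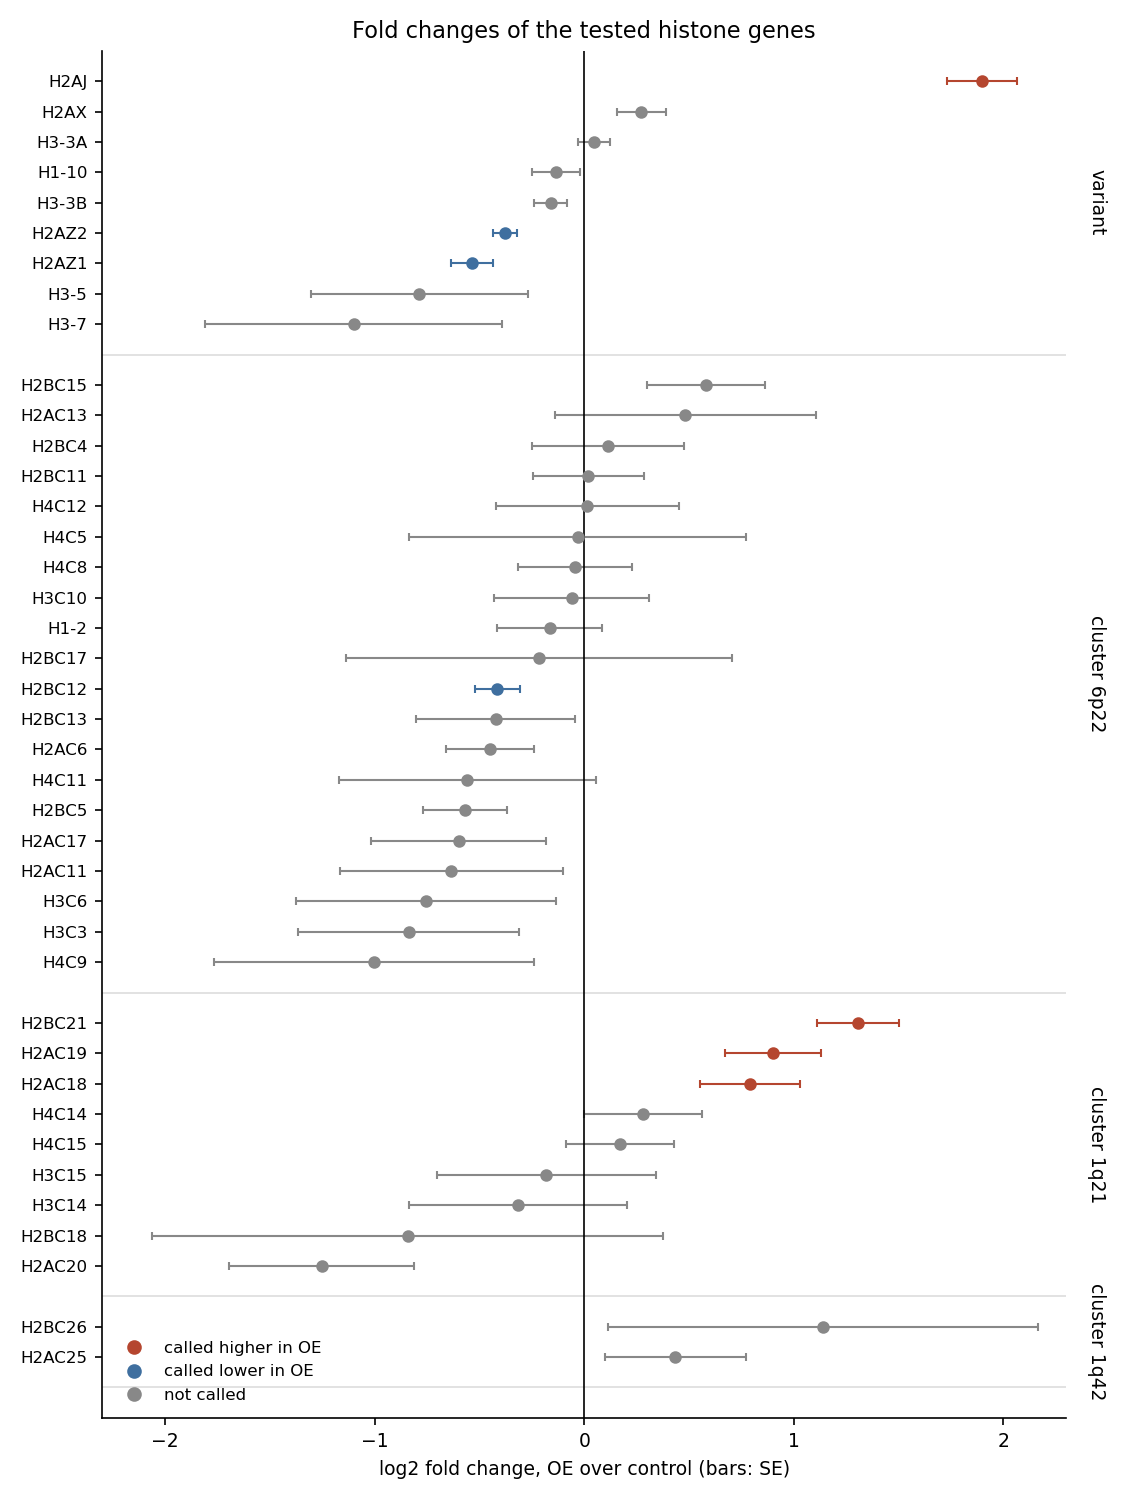
Log2 fold change of OE over control with its standard error for 40 of the 41 tested histone genes, grouped into variant genes and cluster genes by locus and ordered by value. H2AJ at 1.90, H2BC21 at 1.31, H2AC19 and H2AC18 were called higher, and H2AZ1, H2AZ2 and H2BC12 were called lower, while the wide bars belong to genes with few counts.

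Among the variant genes, H2A.Z transcripts fell and H2AJ rose. Of the 10 tested variant genes, 1 was called higher and 2 lower, against 14.2% higher and 9.94% lower of all tested genes. The median log2 fold change of the 10 was -0.15. H2AZ1 encodes H2A.Z.1, an H2A variant that sits around transcription start sites. It lies on GRCh38 chromosome 4, 99948086 to 99950388, minus strand in GENCODE v29. Its level was 379.8, 388.6 and 454.9 CPM in the OE libraries and 562.1, 547.0 and 662.1 CPM in the controls. All 3 OE libraries lay below all 3 controls, and replicate 3 was the highest of each group. Its log2 fold change was -0.53 (SE 0.10, adjusted p = 0.00752). H2AZ2, which encodes the closely related H2A.Z.2 (chromosome 7, 44826791 to 44848083, minus strand), had 237.2, 236.8 and 251.9 CPM in OE and 306.0, 319.7 and 318.3 CPM in control. Here too the groups did not overlap, and the SD within a group was 8.63 CPM in OE and 7.55 CPM in control (n = 3 each). The log2 fold change of H2AZ2 was -0.38 (SE 0.06, adjusted p = 0.00308). The summed level of both H2A.Z genes was 649.7 ± 49.6 CPM in OE and 905.0 ± 65.2 CPM in control (SD, n = 3 each). With OE replicate 1 alone against the controls, adjusted p was 0.0665 for H2AZ1 and 0.0934 for H2AZ2. Exons of H2AZ1 overlap those of an unnamed gene on the opposite strand, whose reads cannot be told apart where counting ignores strand.

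H2AJ encodes H2A.J, an H2A variant that differs from canonical H2A mainly at its C-terminal end and is known to accumulate in senescent human fibroblasts. The gene lies next to H4C16 on chromosome 12, at 14774383 to 14778002 on the plus strand, outside the large clusters. It stood at 7.84, 7.57 and 9.19 CPM in the OE libraries and at 2.03, 2.19 and 2.37 CPM in the controls. The lowest OE library was thus more than 3 times the highest control. The log2 fold change was 1.90 (SE 0.17, adjusted p = 0.000232), and the call was kept in 15 of 15 alternative settings, with adjusted p between 2.41e-21 and 0.0120. The highest of these is from OE replicate 1 alone, where the spread comes from the controls only. No stretch of 100 bases of its coding transcripts was shared with another gene. The longest of these has 644 bases, while all annotated exons of H2AJ cover 3356 bases, and the rest was not searched. The 8 B cell markers summed to 28.8, 96.0 and 95.4 CPM in the same OE libraries, against 19.9 to 26.0 CPM in the controls, and their part in the result was not tested. H4C16, whose start lies 3252 bases away on the opposite strand, held 0, 4 and 3 counts in OE and 2, 0 and 7 counts in control and was not tested. Of the 7 other tested genes within 250 kb of H2AJ, 0 rose and 1 fell (ERP27, log2 fold change -1.36, SE 0.35, adjusted p = 0.0265), a neighbourhood looked at after the values were seen. For comparison, 24.1% of all tested genes were called in either direction.

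The remaining abundant variants did not pass the test. H2AX encodes H2A.X, the variant phosphorylated at DNA breaks, and its mRNA exists in a stem-loop form and a polyadenylated form. Its level was 74.6, 78.9 and 89.1 CPM in OE and 60.9, 61.8 and 78.2 CPM in control, with control replicate 3 inside the OE range. The log2 fold change was 0.27 (SE 0.12, adjusted p = 0.134). Without control replicate 3 it was 0.40, with an adjusted p of 0.0162. H3-3A and H3-3B both encode H3.3, the H3 variant placed on chromatin outside replication. H3-3A had 316.6, 310.7 and 359.7 CPM in OE and 312.3, 309.7 and 334.4 CPM in control, so that the groups overlapped (log2 fold change 0.05, SE 0.08, adjusted p = 0.709). H3-3B had 331.8, 325.7 and 366.5 CPM in OE and 362.4, 368.3 and 413.8 CPM in control, where OE replicate 3 reached into the control range (log2 fold change -0.16, SE 0.08, adjusted p = 0.183). The summed H3.3 level was 670.4 ± 48.7 CPM in OE and 700.3 ± 41.5 CPM in control (SD, n = 3 each), a gap within the spread.

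The linker histone variants bind the DNA between nucleosomes. Of these, H1-10, which encodes H1.10, was at 125.5, 120.5 and 133.8 CPM in OE and 126.7, 124.8 and 165.5 CPM in control, with a log2 fold change of -0.13 (SE 0.12, adjusted p = 0.447). The groups of H1-10 overlapped, and control replicate 3 was the only library above 133.8 CPM. Exons of H1-10 overlap those of its antisense RNA H1FX-AS1, and the exons of H3-3B overlap those of UNK on the opposite strand.

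Per kilobase of the longest coding transcript, levels over all 6 libraries were 509.8 CPM for H2AZ1, 173.9 for H3-3A, 133.6 for H3-3B, 88.1 for H1-10, 73.2 for H2AZ2, 45.8 for H2AX and 8.07 for H2AJ. Per kilobase of all annotated exons the values were lower where a gene has long or alternative exons, at 216.7 CPM for H2AZ1, 103.0 for H3-3A, 88.1 for H1-10, 58.9 for H3-3B, 58.6 for H2AZ2, 45.8 for H2AX and 1.55 for H2AJ. H2AZ1 stood first and H2AJ last of these 7 on both scales, and H1-10 and H3-3B changed places. Further variants passed the filter at low levels. H3-5, an H3.3-like gene, had 16, 8 and 16 counts in OE and 34, 18 and 20 counts in control (log2 fold change -0.79, SE 0.52, adjusted p = 0.319). H3-7 had 52, 7 and 9 counts in OE and 49, 56 and 44 counts in control, so that OE replicate 1 lay with the controls and not with replicates 2 and 3. Its exons overlap those of other genes on the same strand, which leaves the source of these counts uncertain. Of the 10 variants below the filter, H2BK1 had 6, 11 and 7 counts in OE and 1, 3 and 2 counts in control, and H1-8, H2AL3, H2AP, H2BW1 and H2BW2 were at 0 in every library.

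**Figure D2:**
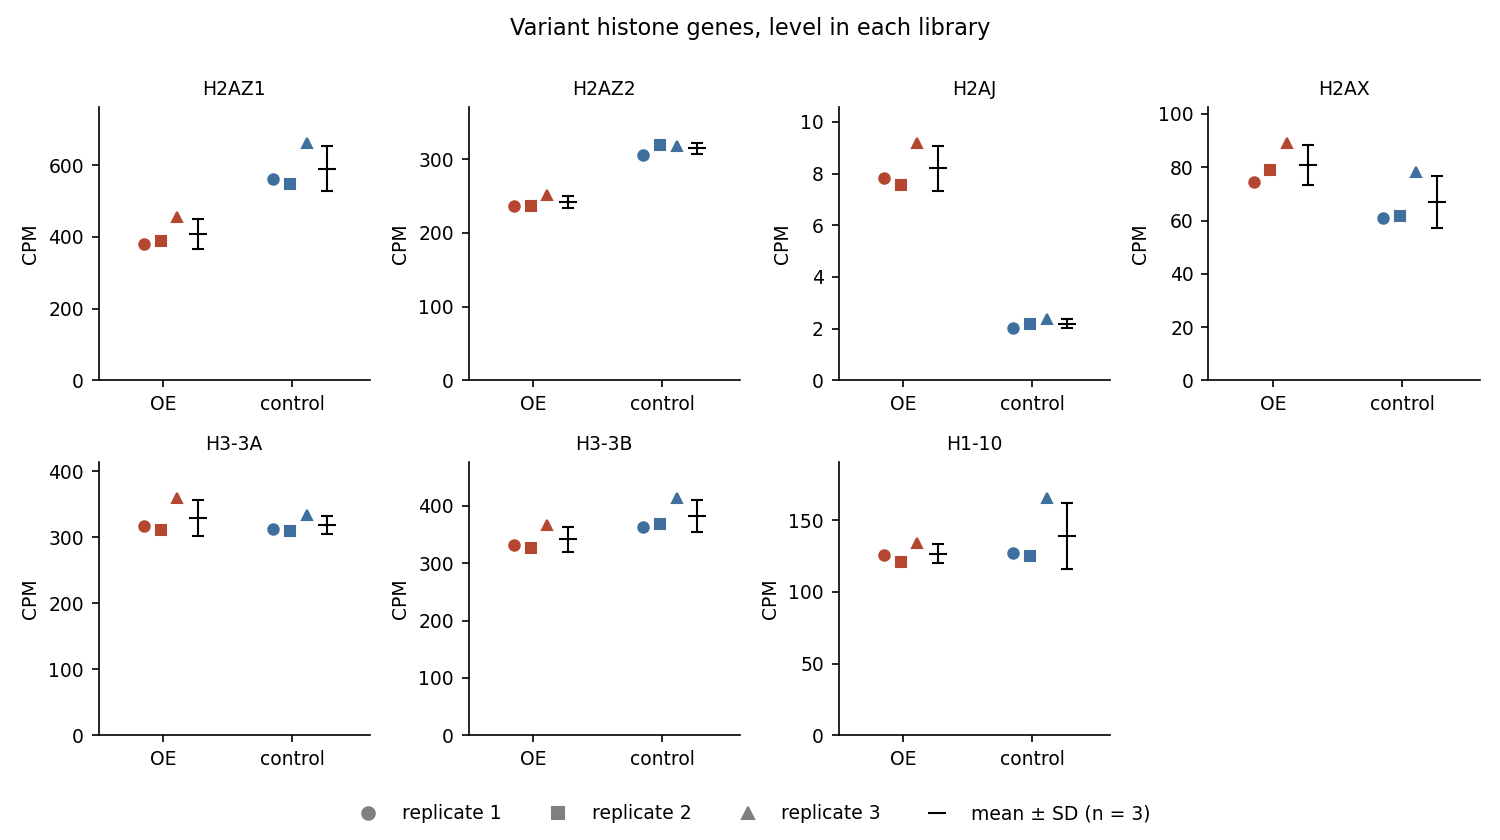
Level in CPM (vertical axes, from 0) of 7 abundant or called variant histone genes in each library, with OE to the left of control, symbols for the replicates and the mean with SD (n = 3). The OE points of H2AZ1 and H2AZ2 lie below all control points, those of H2AJ lie above them at 7.57 to 9.19 against 2.03 to 2.37 CPM, and H2AX, H3-3A, H3-3B and H1-10 overlap.

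Transcripts of the cluster genes were scarce in this poly(A) RNA. Summed over the 71 genes they made up 45.5, 44.6 and 50.3 CPM in the OE libraries and 44.4, 49.3 and 52.2 CPM in the controls, a mean of 46.8 ± 3.05 CPM in OE and 48.6 ± 3.92 CPM in control (SD, n = 3 each). The variant genes summed to 1599, 1589 and 1791 CPM in OE and to 1861, 1861 and 2117 CPM in control, a mean of 1660 ± 114 CPM in OE and 1947 ± 148 CPM in control. The cluster sums overlapped between the groups and the variant sums did not. The variant difference (OE minus control) was -286.7 CPM, of which H2AZ1 and H2AZ2 together held -255.3 CPM. The gap between the variant sums is thus mainly that of these 2 genes. The cluster genes held 2.74% ± 0.02 of all histone CPM in OE and 2.44% ± 0.13 in control (SD, n = 3 each). In bulk RNA, fewer cells with a transcript and less transcript per cell cannot be told apart.

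**Figure D3:**
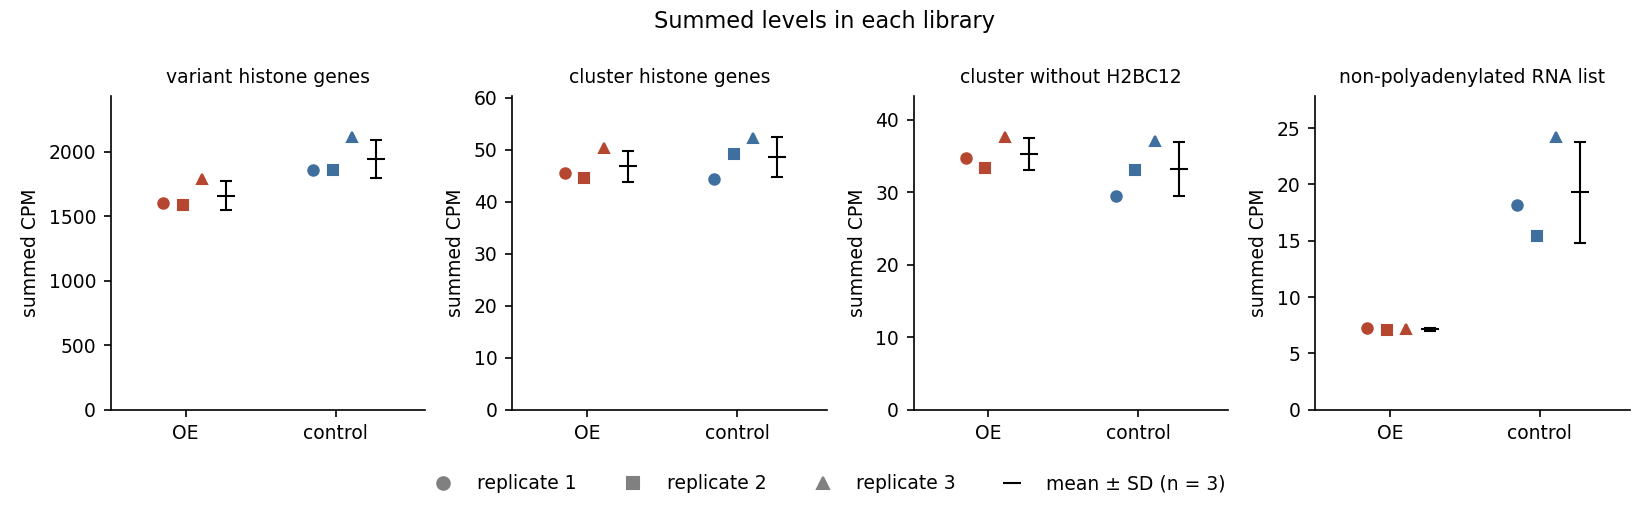
Summed CPM per library (vertical axes, from 0) of the variant genes, the cluster genes, the cluster genes without H2BC12 and the list of non-polyadenylated RNAs, OE to the left of control, with mean and SD (n = 3). The variant sums of OE (1589 to 1791) lie below those of control (1861 to 2117), mainly through H2AZ1 and H2AZ2, and the cluster sums overlap. The non-polyadenylated RNAs, mostly RN7SL1 and RN7SL2, sum to 7.04 to 7.28 in OE and 15.4 to 24.3 in control.

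Of the 31 tested cluster genes, 3 were called higher and 1 lower, against 14.2% higher and 9.94% lower of all tested genes. The median log2 fold change of the 31 was -0.16. The 3 that rose (H2BC21, H2AC18 and H2AC19) all lie at 1q21, and the 1 that fell (H2BC12) lies at 6p22, the largest cluster. At 1q21, 9 of 11 genes were tested, 3 were called higher and 0 lower, and the median log2 fold change was 0.17. At 6p22, 20 of 55 genes were tested, 0 were called higher and 1 lower, and the median was -0.32, with 15 of 20 genes below 0. At 1q42, 2 of 3 genes were tested (H2AC25 at 0.43 and H2BC26 at 1.14) and neither was called. Whether the loci differ from each other was not tested. H2AC18 and H2AC19 are near-identical copies. With copies summed before the fit, a choice made after seeing the data, 2 cluster genes were called higher. The count of cluster genes called higher was 1 without OE replicate 1, without OE replicate 3, without control replicate 1 and without control replicate 2. That of cluster genes called lower was 0 without OE replicate 1 or 2 or control replicate 1 or 2.

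H2BC21 encodes an H2B protein and is known from other cells to give a long polyadenylated transcript. It had 3.61, 3.74 and 3.10 CPM in OE and 1.48, 1.31 and 1.43 CPM in control. The lowest OE library was more than 2 times the highest control. For H2BC21 the log2 fold change was 1.31 (SE 0.20, adjusted p = 0.00268), and it was called in 15 of 15 alternatives, with adjusted p between 1.14e-06 and 0.0473, again highest with OE replicate 1 alone. H2AC20, an H2A gene transcribed in the opposite direction from a RefSeq start 236 bases away, is named here after its values were seen. It had 0.750, 0.284 and 0.881 CPM in OE and 1.11, 1.73 and 1.73 CPM in control, with all OE libraries below all controls. Its log2 fold change was -1.25 (SE 0.44, adjusted p = 0.0779), which did not pass the test. Within 250 kb of H2BC21, 7 other tested genes were looked at after the values were seen. Of these 1 rose, BOLA1 (log2 fold change 1.29, SE 0.21, adjusted p = 0.00363), a mitochondrial protein gene whose start in GENCODE v29 lies 1238 bases away, and 1 fell, MTMR11 (-1.20, SE 0.26, adjusted p = 0.0139). Over all tested genes, 24.1% were called in either direction.

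H2AC18 and H2AC19 are near-identical H2A genes that lie 8325 bases apart at 1q21 in opposite directions. All of the 100-base stretches of H2AC18 and 96.8% of those of H2AC19 occur in another gene, mostly in each other, so that their counts cannot be assigned to 1 of them with certainty. H2AC18 had 2.61, 2.45 and 3.51 CPM in OE and 1.46, 1.53 and 1.95 CPM in control (log2 fold change 0.79, SE 0.24, adjusted p = 0.0471). H2AC19 had 2.82, 2.41 and 3.27 CPM in OE and 1.34, 1.43 and 1.78 CPM in control (0.90, SE 0.23, adjusted p = 0.0251). In both genes all OE libraries lay above all controls. Their summed level was 5.69 ± 0.99 CPM in OE and 3.16 ± 0.50 CPM in control (SD, n = 3 each), and with the copies summed before the fit, a choice made after seeing the data, the log2 fold change was 0.85 with an adjusted p of 0.0207. The single calls were less firm. Adjusted p was 0.0693 for H2AC18 and 0.0543 for H2AC19 without OE replicate 1, 0.139 and 0.0790 without OE replicate 3, 0.146 and 0.0922 without control replicate 1, and 0.146 and 0.0923 without control replicate 2. Without OE replicate 2 it was 0.0807 for H2AC18.

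H2BC12, an H2B gene at 6p22, was the cluster gene with the most counts. It had 10.8, 11.2 and 12.6 CPM in OE and 14.8, 16.1 and 15.1 CPM in control, with no overlap. For H2BC12 the log2 fold change was -0.41 (SE 0.11, adjusted p = 0.0274). Adjusted p was 0.0784 without OE replicate 1, 0.0968 without OE replicate 2, 0.0709 without control replicate 1 and 0.101 without control replicate 2. H2BC12 made up 24.6% of the summed cluster CPM in OE and 31.6% in control, and without it the cluster sum was 35.3 ± 2.22 CPM in OE and 33.3 ± 3.74 CPM in control (SD, n = 3 each). Its GENCODE v29 model holds only the coding sequence of 381 bases, while RefSeq places the gene at 27138293 to 27146858 on chromosome 6. The transcript behind its counts is therefore not known. Of the 100-base stretches of the GENCODE v29 model, 28.4% also occur in the H2B copy on chromosome 21, and longer forms were not searched.

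**Figure D4:**
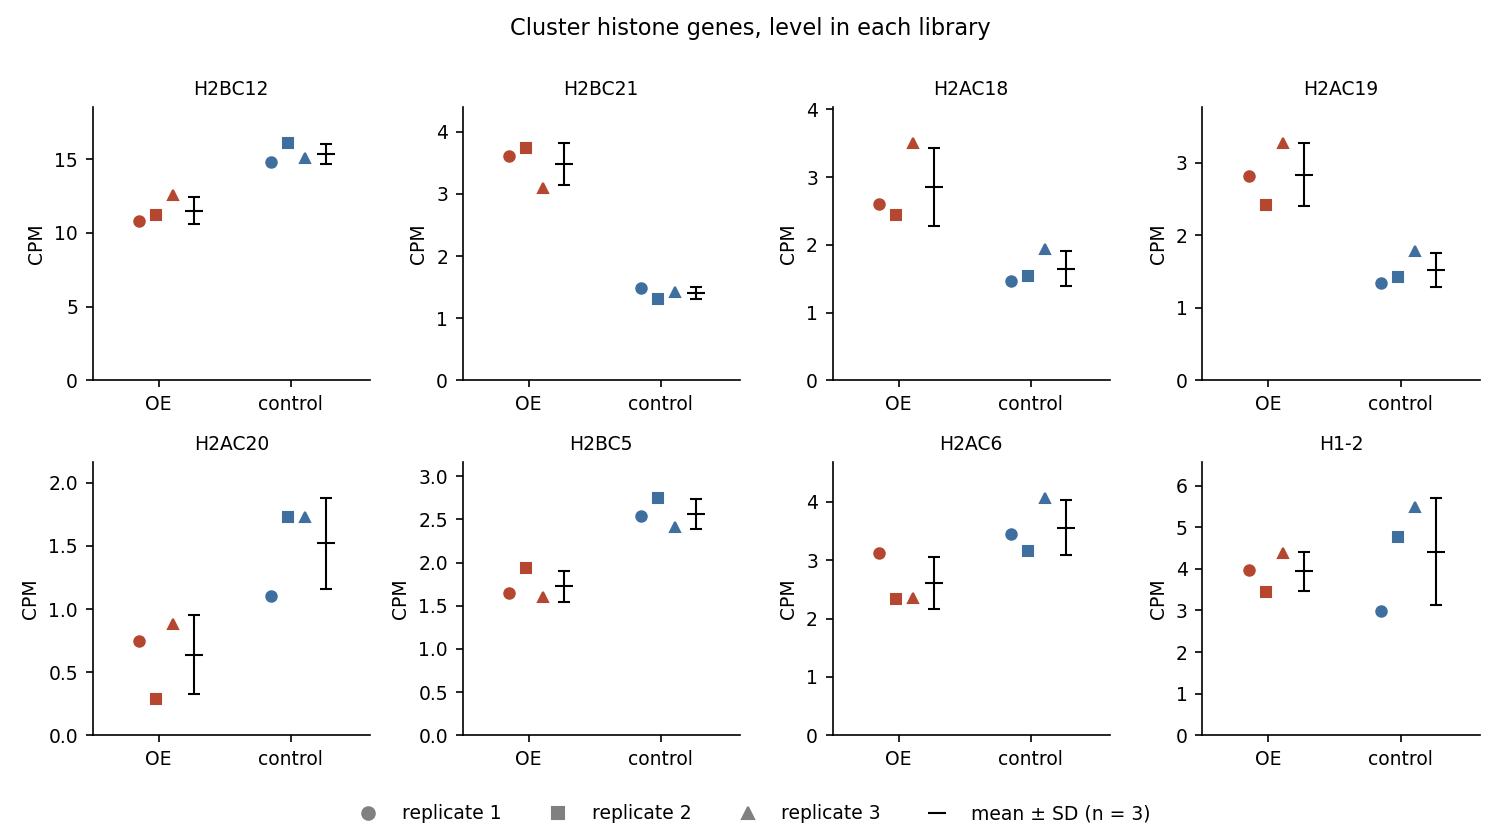
Level in CPM (vertical axes, from 0) of 8 cluster histone genes in each library, with OE to the left of control, symbols for the replicates and the mean with SD (n = 3). H2BC21, H2AC18 and H2AC19 have all OE points above the controls, H2BC12, H2AC20, H2BC5 and H2AC6 have all OE points below them, and H1-2 overlaps.

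Of the other cluster genes, H2BC5 had 1.64, 1.93 and 1.61 CPM in OE and 2.53, 2.75 and 2.41 CPM in control. H2AC6, like H2BC5 at 6p22, had 3.12, 2.34 and 2.351 CPM in OE and 3.45, 3.16 and 4.07 CPM in control. In both genes all OE libraries lay below all controls, but adjusted p was 0.0781 for H2BC5 and 0.167 for H2AC6. H2BC15 lay the other way, with 1.82, 1.61 and 2.23 CPM in OE and 1.39, 1.498 and 0.892 CPM in control (adjusted p = 0.179). H1-2, the only tested cluster linker histone gene, had 3.98, 3.44 and 4.39 CPM in OE and 2.98, 4.76 and 5.50 CPM in control, with a log2 fold change of -0.16 (SE 0.25, adjusted p = 0.681).

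By family, 8 of 17 cluster H2A genes were tested, with a median log2 fold change of -0.01, and 10 of 19 cluster H2B genes, with a median of -0.10. Of the 14 cluster H3 genes 5 were tested, all with a log2 fold change below 0 and a median of -0.32, and none was called. H3C14 and H3C15, among these 5, are near-identical copies, so their values are not independent. The H4 genes were tested in 7 of 15 cases, with a median of -0.03, and none was called. H4C14 and H4C15, whose transcripts are nearly the same, had log2 fold changes of 0.28 (SE 0.28) and 0.17 (SE 0.26). Among the tested cluster genes with a stem-loop in their model, 3 of 22 were called higher and 0 lower (median -0.04). Among those without, 0 of 9 were called higher and 1 lower (median -0.41). These are counts over genes that passed the filter, and the difference between the kinds of model was not tested. The shares over all tested genes were 14.2% called higher and 9.94% lower. The 3 genes called higher include the near-identical H2AC18 and H2AC19.

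None of the 40 cluster genes below the filter averaged more than 0.172 CPM over the 6 libraries. Of these, H3C7 had 4, 8 and 4 counts in OE and 0, 0 and 0 in control, and H4C3 had 4, 6 and 7 counts in OE and 0, 0 and 0 in control. At 4 counts a fragment, such values rest on 1 or 2 fragments. Copies limit these genes further. In 18 of the 91 genes, 10 of them tested, at least 50% of the 100-base stretches of the coding transcripts occur in another gene.

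Of 21 genes for the transcription, 3′ processing and decay of histone mRNA, all tested, 2 rose and 2 fell, with a median log2 fold change of -0.10. This share was not above the 24.1% of all tested genes that were called in either direction. SLBP, which binds the stem-loop, was at 159.6, 156.2 and 176.9 CPM in OE and 173.9, 180.0 and 187.0 CPM in control, with OE replicate 3 inside the control range (log2 fold change -0.13, SE 0.07, adjusted p = 0.212). NPAT, the coactivator of histone gene transcription, had a log2 fold change of 0.07 (SE 0.17, adjusted p = 0.810). CASP8AP2, a component of the histone locus body, had -0.51 (SE 0.23, adjusted p = 0.149), and its control replicate 3, at 41.1 CPM, lay among the OE libraries at 37.6 to 49.4 CPM. The genes that changed were ERI1, the exonuclease that trims the stem-loop end (-0.41, SE 0.07, adjusted p = 0.00575), SRRT, the cap-associated factor ARS2 (-0.28, SE 0.07, adjusted p = 0.0206), LSM11, a subunit of the U7 small nuclear ribonucleoprotein (0.50, SE 0.12, adjusted p = 0.0217), and CSTF2, a cleavage factor subunit (0.24, SE 0.06, adjusted p = 0.0230). Leaving out 1 library gave 0 to 2 higher and 1 to 5 lower. The higher count was 0 without OE replicate 2 or 3 and 1 without OE replicate 1 or control replicate 1 or 2. The lower count was 1 without any 1 of the OE replicates and 5 without control replicate 3.

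Of 16 genes for general cleavage and polyadenylation, 4 rose and 4 fell, against 14.2% higher and 9.94% lower of all tested genes, with a median log2 fold change of 0.00. CSTF2T, the paralogue of CSTF2, was at 37.2, 40.3 and 33.5 CPM in OE and 18.7, 20.01 and 16.7 CPM in control (log2 fold change 1.00, SE 0.11, adjusted p = 0.000534), with no overlap. WDR33, which binds the poly(A) signal, also rose (0.31, SE 0.06, adjusted p = 0.00756). CSTF3, another subunit of the cleavage stimulation factor, fell (-0.37, SE 0.06, adjusted p = 0.00525), as did CPSF7 of cleavage factor I (-0.35, SE 0.06, adjusted p = 0.00550). The higher count was 1 without OE replicate 2 and 2 without OE replicate 1 or 3 or control replicate 1 or 2, and the lower count was 2 without OE replicate 1.

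Of 27 histone chaperones and loaders, 2 rose and 10 fell, with a median log2 fold change of -0.19. Of all tested genes 14.2% were called higher and 9.94% lower. ASF1A, a chaperone of H3 and H4, was at 33.9, 29.6 and 30.8 CPM in OE and 55.6, 58.7 and 50.0 CPM in control (log2 fold change -0.80, SE 0.09, adjusted p = 0.000727). DNAJC9, a heat shock co-chaperone of H3 and H4 (-0.68, SE 0.07, adjusted p = 0.000586), and IPO4, which imports them into the nucleus (-0.56, SE 0.09, adjusted p = 0.00291), fell as well. RBBP7, an H4-binding subunit of several chromatin complexes, was at 315.3, 307.3 and 332.7 CPM in OE and 202.7, 207.1 and 214.8 CPM in control (0.61, SE 0.06, adjusted p = 0.000400). In each of these 4 genes the groups did not overlap. ANP32E, which removes H2A.Z from chromatin and is named after its values were seen, was among those that fell (-0.25, SE 0.08, adjusted p = 0.0486). The lower count was 6 without OE replicate 1 and 5 without OE replicate 2, and the higher count was 1 without any 1 of the libraries other than control replicate 3. Of the histone variants that the naming rule leaves out, MACROH2A1 had a log2 fold change of -0.08 (SE 0.06, adjusted p = 0.352), CENPA, the H3 variant of centromeres, had 0.09 (SE 0.06, adjusted p = 0.386), and MACROH2A2 was below the filter.

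Since cluster histone transcription goes with S phase, 34 genes of DNA replication were counted as well, SLBP among them. Of these, 6 rose and 8 fell, against 14.2% higher and 9.94% lower of all tested genes, with a median log2 fold change of -0.12. The GINS subunit gene GINS1 was at 118.7, 124.6 and 127.9 CPM in OE and 61.2, 59.0 and 59.3 CPM in control (1.05, SE 0.06, adjusted p = 4.42e-05). ORC1, a subunit of the origin recognition complex, fell (-0.49, SE 0.06, adjusted p = 0.00121), as did CLSPN, a checkpoint mediator (-0.80, SE 0.11, adjusted p = 0.00162), and RRM2, a subunit of ribonucleotide reductase (-0.39, SE 0.05, adjusted p = 0.00163). The list thus held members in both directions, and its sum was 6262 to 6421 CPM in OE and 6142 to 6367 CPM in control. The higher count was 3 without OE replicate 1 or 2 or control replicate 2 and 10 without control replicate 3, and the lower count was 5 without OE replicate 2 and 4 without control replicate 1 or 2.

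RNAs that carry no poly(A) tail were counted as a measure of such RNA in the libraries. Of 27 such genes 4 were at 0 in all libraries and 4 were tested, of which 0 rose and 2 fell, against 14.2% higher and 9.94% lower of all tested genes. RN7SL1, the RNA of the signal recognition particle, was at 2.77, 3.35 and 2.82 CPM in OE and 9.12, 7.86 and 9.81 CPM in control (log2 fold change -1.58, SE 0.17, adjusted p = 0.000543). RN7SL2, its near-identical copy, was at 2.48, 2.06 and 2.41 CPM in OE and 6.39, 5.34 and 10.8 CPM in control (-1.70, SE 0.28, adjusted p = 0.00434). The 27 genes summed to 7.04 to 7.28 CPM in OE and 15.4 to 24.3 CPM in control, without overlap. RN7SL1 and RN7SL2 held most of this sum, with means of 2.98 and 2.32 CPM in OE and 8.93 and 7.52 CPM in control. The other 2 tested genes were not called. RN7SK was at 0.892, 0.603 and 0.803 CPM in OE and 1.55, 1.02 and 2.25 CPM in control, without overlap. Its log2 fold change was -1.07 (SE 0.35, adjusted p = 0.0646), and that of SNORA73B was 0.11 (SE 0.38). The sum mainly follows the near-identical RN7SL1 and RN7SL2 and is no general measure of RNA without a tail. The part of such RNA in the cluster gene values was not tested.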

How the data were processed

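Poly(A) RNA of 3 OE and 3 control libraries was sequenced in pairs from strand-specific libraries, per the labels' protocols. The authors deposited 1 table of estimated counts per gene, made with FastQC, fastp, STAR and featureCounts of Subread on GRCh38 (hg38), per the submitters' processing notes. Not given in the sources used here are tool versions, the annotation, the counting unit, and how strand and reads that map to several places were handled. Multi-mapping reads bear on the many histone copies. The values were whole numbers, so rounding changed nothing, and they were treated as estimated counts because of an excess at exactly 4 and 8.

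After filterByExpr, which left 19485 genes, TMM factors were computed and OE was set against control with edgeR 4.0.16 in R 4.3.3 (two-sided quasi-likelihood test, Benjamini-Hochberg adjusted, threshold 0.05). Total counts per library were 51543550 to 57463020. The fit was tested on simulated data. Alternatives were RLE or no scaling factors, no filter or 50 counts in 3 libraries, DESeq2 1.42.0, the replicate number as a block, counts divided by 4, each library left out, OE replicate 1 alone and, chosen after seeing the data, near-identical copies summed. GENCODE v29 models were matched to 87 members by identifier and 4 by synonym. RefSeq gave the promoters. With the counts divided by 4, replicates differed beyond sampling noise in every pair (chi-square over its degrees of freedom 2.51 to 15.8).

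Values in every library are given for histone genes of at least 5 CPM on average or past the threshold. Of the other lists, up to 4 genes with the smallest p are named, along with SLBP, NPAT, CASP8AP2, MACROH2A1, MACROH2A2, CENPA and CD69. Other genes were chosen after their values were seen. The values of 1 histone gene that the rule names are not reported here. The members and lists were chosen with earlier results of these data known. Figures were drawn with matplotlib 3.10.9.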

Additional observations from a re-analysis of the deposited data

How the results depend on the processing

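The calls of H2AJ and H2BC21 were kept in 15 of 15 alternatives and those of H2AZ1 and H2AZ2 in 14 of 15, with OE replicate 1 alone the exception. H2BC12 was called in 10 of 15, H2AC19 in 8 of 14 and H2AC18 in 7 of 15. Scaling moved the median of all genes by -0.02 (RLE factors) and 0.01 (no scaling factors). Of the counts and sums under the alternatives, 243 stayed near the value reported and 75 moved. Small steps were taken as near, such as those with RLE factors and all 6 libraries. There 3 histone genes were higher against 4, and 2 cluster genes against 3. With 1 library left out in turn, fewer libraries entered each fit. The ranges were then 1783 to 2917 genes higher and 1137 to 2226 lower among all genes, 2 to 5 histone genes higher, 1 to 3 cluster genes higher and 0 to 1 lower, and 1 to 2 variant genes higher. For the lists they were 0 to 2 higher and 1 to 5 lower for histone mRNA processing, 1 to 5 higher and 2 to 4 lower for cleavage and polyadenylation, 1 to 3 higher and 5 to 11 lower for chaperones, and 3 to 10 higher and 4 to 9 lower for S phase. The difference of the cluster sums (OE minus control) lay between -4.02 and 0.05 CPM. OE replicate 1 alone against the controls, where the lone library is assumed to vary like the controls, called 797 genes higher and 380 lower, of them 2 histone genes higher and 0 lower, 1 cluster gene higher and 0 lower, and 0 variant genes lower. In the lists this gave 0 higher and 0 lower for processing, 1 and 0 for cleavage and polyadenylation, 1 and 1 for chaperones, 2 and 1 for S phase, and 1 lower for the non-polyadenylated RNAs. Without a filter, 2 histone genes and 1 cluster gene were higher, 1 chaperone was higher and 5 S phase genes were lower, with more genes in the adjustment. For what follows the cause was not tested. DESeq2 called 2 cluster genes, 6 processing genes and 14 S phase genes lower. Counts divided by 4 gave 2 cluster genes lower, and no scaling factors gave 1 chaperone higher. Over all tested genes, the libraries with the same replicate number did not deviate together (correlations -0.03, 0.05 and 0.07). Genes with few counts enter these values too, so they cannot decide whether the numbers pair the libraries. With the replicate number as a block, 3194 of all tested genes were higher and 2669 lower, against 2767 and 1937 without it. With the replicate block, 2 variant genes were higher, 5 processing genes and 14 S phase genes were lower and 4 chaperones were higher, and H2AX (adjusted p = 0.0127) and H3-3B (0.0271) were called. The log2 fold change turned sign in H1-10, which lay between -0.224 and 0.0131 with 1 library left out (highest without control replicate 3), and in H3-3A, between -0.0229 (without OE replicate 3) and 0.0844, and -0.0105 with OE replicate 1 alone, none of them called. Low counts limit most cluster genes.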
